A study of Homo sapiens with 4 samples.

Results

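Methylation was read at 3 imprinted places on human chromosome 20: the MCTS2P gene inside HM13, the NNAT gene inside BLCAP, and L3MBTL1. The cytosines were chosen by position and coverage. On the hg19 (GRCh37) build the intervals were bases 30132001 to 30138000 for MCTS2P and HM13, 36145001 to 36158000 for NNAT and BLCAP, and 42140001 to 42147000 for L3MBTL1, and each cytosine needed at least 5 reads in all 4 libraries. This gave 98 cytosines out of 907719 in the whole series, with 26 in the MCTS2P/HM13 interval, 66 in the NNAT/BLCAP interval and 6 in the L3MBTL1 interval. The difference between the primed libraries at MCTS2P was known when the intervals were picked, so it is given as a description. The other intervals were also picked with earlier results of these libraries known, so their counts and their ranks among tiles describe them only.

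All 4 libraries came from H9, an established line of human embryonic stem cells. A wild type library and a B3GALT5-/- library were made from primed cells in basal medium. The naive state was represented by a wild type library from 5iLAF medium and a B3GALT5-/- library from 2iLAF medium. They are called WT primed and KO primed, and WT naive and KO naive, here. B3GALT5 encodes a galactosyltransferase that builds surface glycolipids of pluripotent cells. The labels do not say how many clones the knockout stands for. Each group was 1 library, so no difference below has a replicate check, and the effect of the knockout cannot be told apart from any other difference between 2 libraries. In the naive pair the genotype and the medium also changed together and cannot be told apart. The tables hold no readout of the knockout itself and no RNA, so neither the genotype nor pluripotency markers could be checked in them.

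Imprinted genes are expressed from 1 parental copy, and a differentially methylated region set in the germ line marks which copy it is. Such a region, methylated on 1 of the 2 copies in every cell, reads near the middle of the scale in bulk DNA. MCTS2, written MCTS2P in older annotation, is a retrogene, an intronless copy of the X-linked MCTS1, lying in an intron of HM13, which encodes signal peptide peptidase. NNAT encodes neuronatin, a small membrane protein of the developing brain, and lies in the intron of BLCAP, a gene first described in bladder cancer. L3MBTL1 encodes a chromatin-binding protein with MBT repeats. MCTS2, NNAT and L3MBTL1 are known as genes expressed from the paternal copy. The reads here were not assigned to parental copies, so a middle level can come from 1 methylated copy or from a mixture of cells.

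The promoter of MCTS2 is shown because it overlaps the 1 kb tile with the largest mean difference between the genotypes in the 3 intervals. It is the 250 bases before the RefSeq gene start (GRCh38.p14, plus strand), with capitals for each CpG at which at least 1 library listed a cytosine. The RefSeq sequence was laid on the hg19 positions by the spacing of its CpGs. All 24 cytosines listed in the 300 base window fell on CpGs at a single placement, chr20:30134932-30135231, and the next best placement matched 6 of 7. The bases printed are chr20:30134932-30135181, and 15 of their 18 CpGs were listed.

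MCTS2 promoter: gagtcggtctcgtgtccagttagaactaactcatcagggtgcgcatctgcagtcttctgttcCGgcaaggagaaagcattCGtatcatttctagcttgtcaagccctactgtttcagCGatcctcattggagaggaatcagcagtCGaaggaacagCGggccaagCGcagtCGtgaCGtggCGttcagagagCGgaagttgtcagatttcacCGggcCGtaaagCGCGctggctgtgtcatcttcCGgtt

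With at least 5 reads in the library concerned, the mean methylation level over the 300 base window, which adds the first 50 bases of the gene, was 9.89% ± 3.31 (SD over 18 cytosines) in WT primed. It was 77.0% ± 8.33 in KO primed (15 cytosines), 30% ± 9.40 in WT naive (22 cytosines) and 33.8% ± 5.82 in KO naive (23 cytosines). KO primed was therefore the only library of the 4 with this window mostly methylated, and WT primed the only one below 10%. By this limit of reads, the lowest cytosine of KO primed, at 57.1%, lay above the highest of any other library, which was 50% in KO naive. Under the limit the gap closed, as at base 30135013, with KO primed at 50% of 2 reads and KO naive at 50% of 6 reads. The window was shown for its difference between the genotypes, so nothing is read from the gap.

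A hexamer bound by the imprint-keeping zinc finger protein ZFP57, TGCCGC, was searched on both strands of the 250 bases. It occurred 0 times in the MCTS2 promoter, 1 time in 2 of the 3 BLCAP promoters and in 1 of the 2 L3MBTL1 promoters, and it occurs in 12.7% of the 35116 RefSeq promoters of that length. A match or its absence describes the letters of the window only. The 3 BLCAP promoters and 1 of the 2 L3MBTL1 promoters could not be placed on the listed cytosines. NNAT and HM13 had no entry in the promoter table.

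Across the 907719 cytosines kept, the median number of reads per cytosine was 13 in WT primed, 14 in KO primed, 13 in WT naive and 21 in KO naive. Over every cytosine that a library listed, the median was 7, 8, 8 and 13 in the same order. The mean level over the 907719 cytosines was 80.2% in WT primed, 81.2% in KO primed, 57.7% in WT naive and 58.9% in KO naive. The mean difference of a cytosine was thus −22.5 points from WT primed to WT naive and −22.3 points from KO primed to KO naive, which is the setting for each interval. No table held a cytosine with 0 methylated reads, so an unlisted cytosine had either no coverage or no methylated read, and low levels are raised by this selection.

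**Figure D1:**
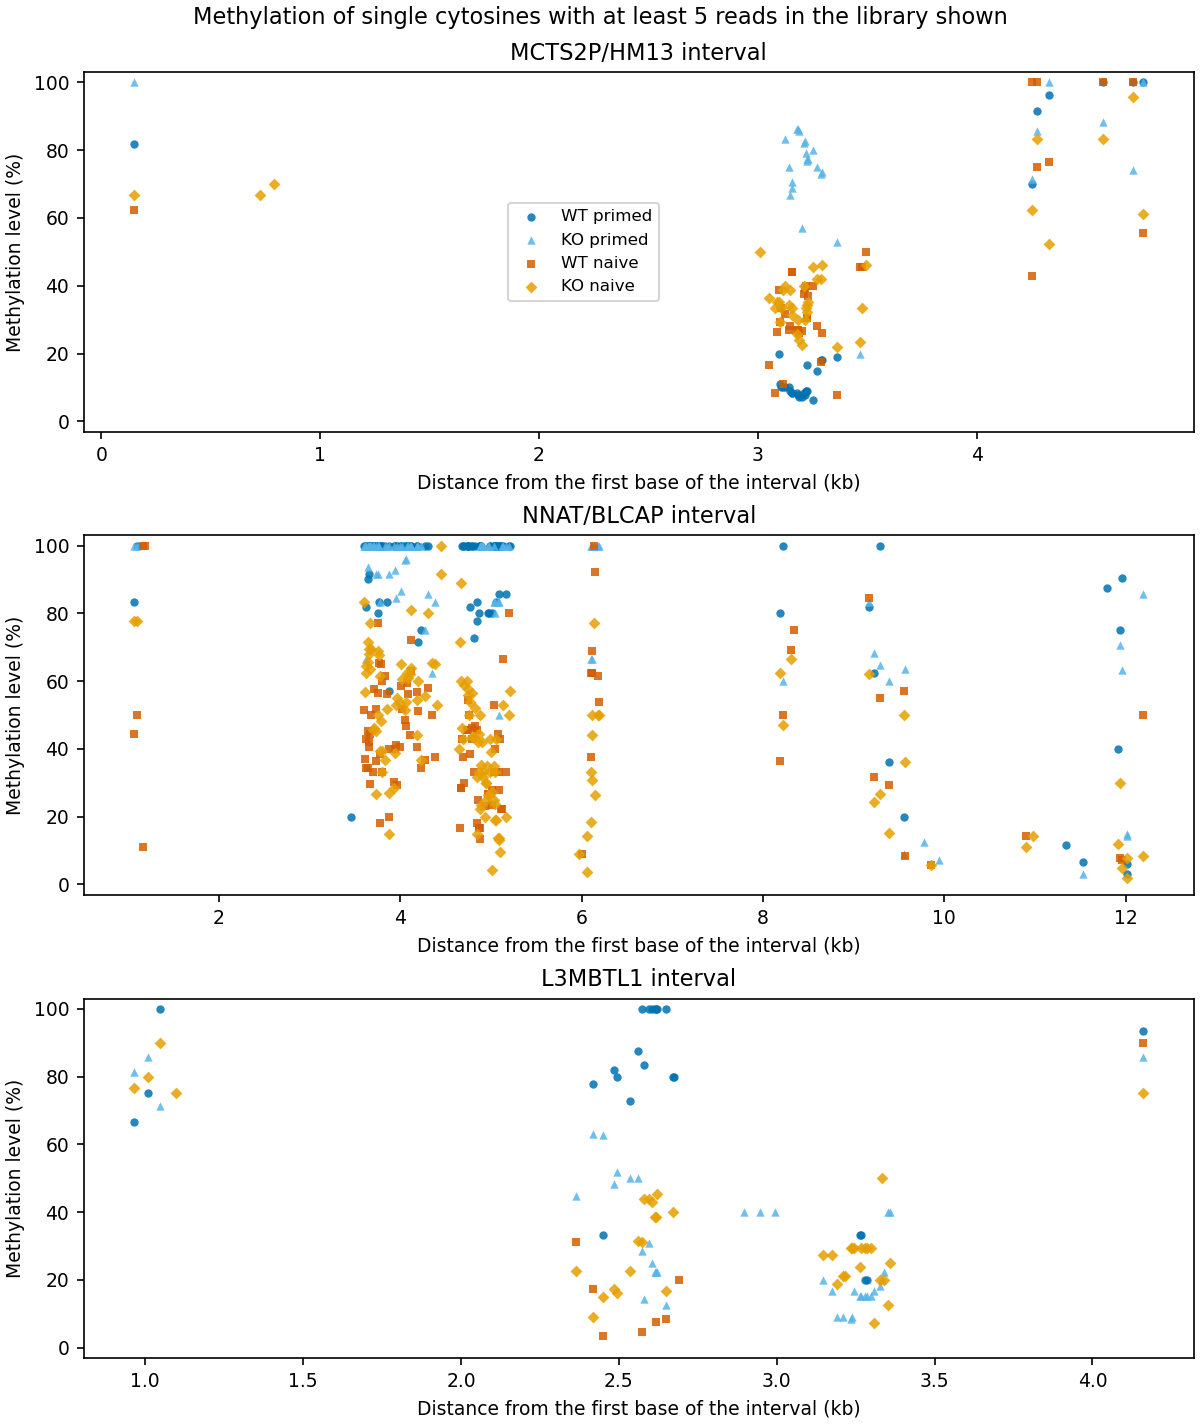
Methylation level (%) of every cytosine with at least 5 reads in the library shown, against its distance in kb from the first base of each interval. Each point is 1 cytosine in 1 library; near 3 kb of the MCTS2P/HM13 interval the KO primed triangles stand apart from the WT primed circles, and over 3.5 to 5.2 kb of the NNAT/BLCAP interval both primed libraries lie near 100% with the naive libraries below them.

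At MCTS2P, the libraries differed most in the tile that begins inside the retrogene promoter, where the primed libraries were the lowest and the highest of the 4. This is the 1 kb tile of bases 30135001 to 30136000, with 19 cytosines. It is called the promoter tile here, although most of its cytosines lie past base 30135181, where the printed promoter ends. Its mean level was 10.7% ± 4.27 (SD over cytosines) in WT primed, with single cytosines between 6.25% and 19.0%. The level was 75.4% ± 9.26 in KO primed (52.9% to 86.4%), 30.4% ± 9.04 in WT naive (7.69% to 44.0%) and 34.1% ± 7.40 in KO naive (22.0% to 46.2%). The 19 cytosines of the primed libraries did not overlap, which is a description, since this difference was known when the interval was picked. The means of the naive libraries lay between those of the primed ones. The naive libraries overlapped each other widely, and WT naive also reached into the range of WT primed, as at base 30135363, where it stood at 7.69% against 19.0% in WT primed.

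The 6 cytosines of the next tile, bases 30136001 to 30137000, did not share this pattern. Their mean level was 93.0% ± 11.7 in WT primed, 86.6% ± 12.3 in KO primed, 75.0% ± 23.1 in WT naive and 73.1% ± 16.8 in KO naive. The single cytosine upstream, at base 30132152, stood at 81.8% in WT primed, 100% in KO primed, 62.5% in WT naive and 66.7% in KO naive. Over these members WT primed was therefore high on either side of the promoter tile and low within it, while KO primed was high in all 3 places. The downstream end of the promoter tile, where coverage was too thin for members, did not follow this. At base 30135467 WT primed stood at 75% of 4 reads and KO primed at 20% of 5 reads, and at bases 30135475 and 30135496 WT primed stood at 66.7% of 3 reads and 100% of 2 reads, with no listing in KO primed.

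KO primed exceeded WT primed by 64.7 points over the promoter tile, and each of its 19 cytosines was higher in KO primed. At base 30135185, the cytosine with the largest such difference among those with at least 10 reads in all libraries, 19 of 22 reads were methylated in KO primed and 1 of 13 in WT primed. The difference of all tiles in the series had a median of 0.662 points for this pair, and 0.0196% of the 51144 tiles lay higher than the MCTS2P tile. Each cytosine of the whole table was compared by Fisher's exact test and called where the Benjamini-Hochberg adjusted p was below 0.05 and the levels lay 25 points or more apart. By this rule 11 of the 26 cytosines were called higher, against 0.216% called higher over the whole table, and 0 were called lower, against 0.103%. Nothing is read from this count or from the place of the tile among all tiles, since the interval was picked with this difference known.

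The low level in WT primed rested on few methylated reads. In 14 of the 19 cytosines of the tile exactly 1 read was methylated, the least that a listed cytosine can have, at 10 to 16 reads per cytosine. Neighbouring cytosines lie close enough to share reads, so these counts are not independent. Pooled over the tile, 11.6% of 275 cytosine readings were methylated in WT primed (Wilson 95% interval 8.36 to 16%) and 75.7% of 461 in KO primed (71.6 to 79.4%). These intervals cover counting error only and are too narrow where reads are shared.

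The wild type and knockout pairs moved in opposite directions at the MCTS2P tile between primed and naive cells. WT naive was 19.7 points higher than WT primed, with 89.5% of the cytosines higher, while the median tile of the series changed by −20.6 points. Only 1.06% of tiles rose more. From KO primed to KO naive the level fell by 41.3 points, with every cytosine lower, against a median of −20.3 points over all tiles, and 10.5% of tiles fell further. The primed libraries enter the known primed difference too, so these values share their libraries with it. The place of the tile among all tiles is therefore a description in both pairs.

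In the wild type pair no cytosine of this interval was called in either direction, against 16.2% called lower and 0.442% called higher over the whole table. At base 30135157, 11 of 25 reads were methylated in WT naive and 1 of 12 in WT primed, with an adjusted p of 0.184 by Fisher's exact test. In the knockout pair 14 of the 26 cytosines were called lower and 0 higher, against 18.2% and 0.242% over the whole table. The primed levels are part of the difference known when the interval was picked, so nothing is read from the counts of either pair. At base 30135191 the level was 24.1% of 29 reads in KO naive and 85.7% of 21 reads in KO primed, a difference of −61.6 points (adjusted p = 0.000818, Fisher's exact test).

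The naive libraries lay close to each other at MCTS2P. KO naive was 3.66 points above WT naive over the promoter tile, where 63.2% of cytosines were higher, and the standard deviation within either library was larger than that. No cytosine of the 3 intervals was called in this pair, against 0.218% called lower and 0.391% called higher over the whole table. Without adjustment, 8 of the 98 had a p under 0.05 by Fisher's exact test together with a difference of 25 points. The share over all cytosines by this looser rule was not computed, so nothing is read from that count. With Fisher's exact test the largest difference of the interval among cytosines with at least 10 reads in all libraries, at base 30135288, was 42.0% of 50 reads in KO naive against 17.4% of 23 reads in WT naive (adjusted p = 0.472).

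**Figure D2:**
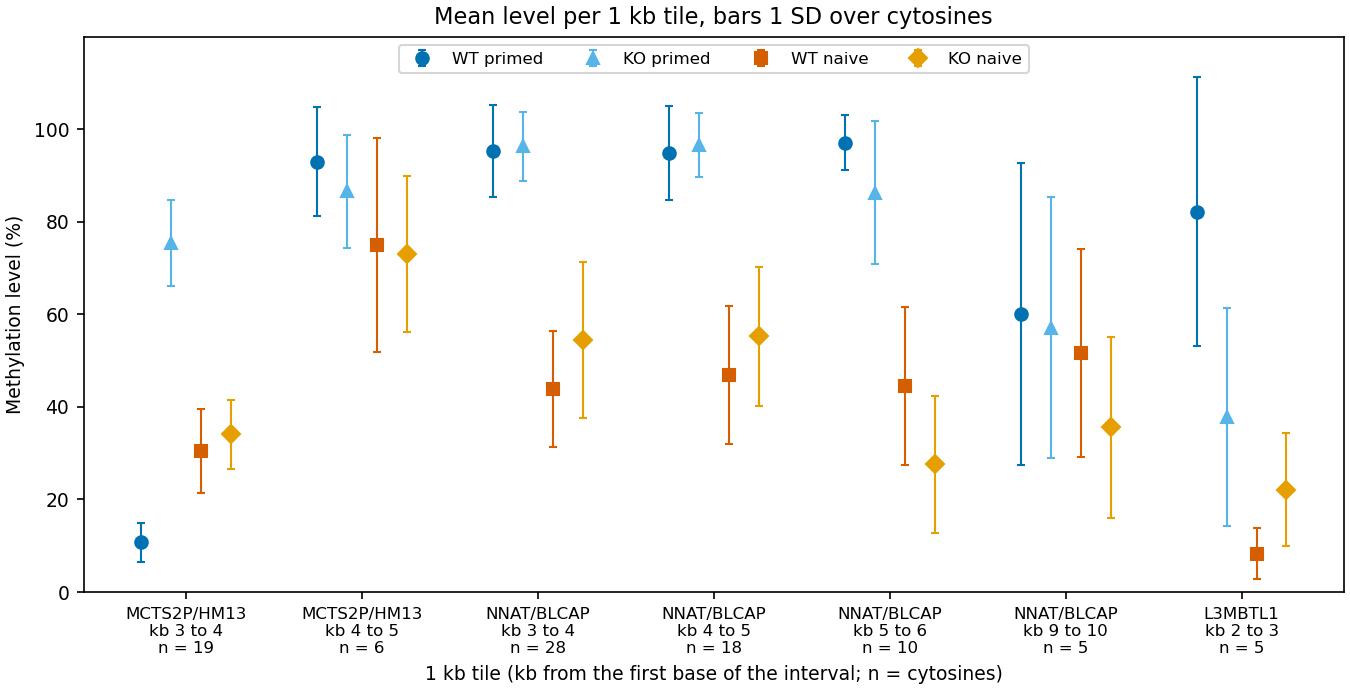
Mean methylation level (%) of each library in the 7 tiles of 1 kb that hold at least 5 cytosines, named by their distance from the first base of the interval. Points are means and bars 1 SD over the n cytosines, not over replicates. The first tile, which begins inside the MCTS2P promoter, runs from 10.7% in WT primed to 75.4% in KO primed. The tiles at 3 to 6 kb of the NNAT/BLCAP interval have the primed libraries above 86% and the naive ones below 56%.

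At NNAT, both primed libraries were almost fully methylated and both naive libraries were near the middle of the scale. The mean level over the 66 cytosines was 92.3% ± 15.3 (SD over cytosines) in WT primed, 90.6% ± 16.3 in KO primed, 44.5% ± 15.6 in WT naive and 48.6% ± 20 in KO naive. Every read was methylated at 46 of the 66 cytosines in WT primed and at 39 in KO primed, but at 0 in either naive library. Depth differed, with a median of 8 reads in WT primed, 12 in KO primed and 27 in each naive library. Full methylation is reached more easily on fewer reads. Between 20% and 80% lay 60 of the 66 cytosines in WT naive and 55 in KO naive, but 6 in WT primed and 9 in KO primed.

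The densest block was 36148001 to 36151000, with 56 of the 66 cytosines in 3 tiles. In the first, 28 cytosines averaged 95.3% ± 9.93 in WT primed, 96.3% ± 7.55 in KO primed, 43.8% ± 12.5 in WT naive and 54.4% ± 16.9 in KO naive. In the next, 18 cytosines averaged 94.8% ± 10.2, 96.6% ± 7.01, 46.9% ± 14.9 and 55.3% ± 15.0 in the same order. All cytosines of these tiles were lower in the naive library of their genotype.

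In the tile at 36150001 to 36151000 the 10 cytosines averaged 97.1% ± 6.02 in WT primed, 86.3% ± 15.4 in KO primed, 44.5% ± 17.1 in WT naive and 27.6% ± 14.8 in KO naive. Coverage there was thin in the primed libraries, at 5 to 7 reads per cytosine. The adjoining tile, 36151001 to 36152000, had no cytosine with 5 reads in WT primed and so no member. Over the 9 cytosines that KO naive shares with another library, the level was 42.2% in KO naive, 92.6% in KO primed and 66.8% in WT naive.

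Downstream of this block the levels of the primed libraries dropped. In the tile 36154001 to 36155000 the 5 cytosines averaged 60.1% ± 32.6 in WT primed, 57.1% ± 28.2 in KO primed, 51.6% ± 22.5 in WT naive and 35.6% ± 19.6 in KO naive. The SD there is as wide as the differences, since single cytosines of WT primed ran from 20% to 100%. At 36156937 and 36156961 the mean of the 2 cytosines was 82.7% in WT primed, 66.9% in KO primed, 7.42% in WT naive and 17.5% in KO naive. Shortly after, at 36157009, the level was 3.13% of 32 reads in WT primed, 15.0% of 20 reads in KO primed and 1.96% of 51 reads in KO naive, with no listing in WT naive. High and low cytosines alternated in WT primed in this stretch, with 11.8% at 36156340 and 6.67% at 36156529 before the pair and 87.5% of 8 reads at 36156790. After it, KO primed was at 85.7% of 7 reads at 36157194.

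The remaining members lay alone. In the tile 36146001 to 36147000 the 2 cytosines averaged 91.7% in WT primed, 100% in KO primed, 47.2% in WT naive and 77.8% in KO naive, at 5 to 12 reads each. The single cytosine between 36153001 and 36154000 stood at 100% in WT primed, 60% in KO primed, 50% in WT naive and 47.1% in KO naive. In both places each naive library was below the primed library of its genotype.

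The fall at NNAT from primed to naive was larger than that of a typical cytosine in either genotype. From WT primed to WT naive the level fell by 47.9 points, with 64 of 66 cytosines lower, and from KO primed to KO naive it fell by 41.9 points, with 65 lower. By tiles, the differences in the block were −51.4, −47.9 and −52.6 points in the wild type pair and −41.9, −41.3 and −58.8 points in the knockout pair. Between 5.55% and 8.36% of all tiles fell further in the wild type pair, and between 2.26% and 10.5% in the knockout pair, so the block lay in the lower tail of the series and not outside it.

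Fisher's exact test called 27 of the 66 cytosines lower in the wild type pair and 33 in the knockout pair, with 0 higher in each, against 16.2% and 18.2% called lower over the whole table. Among cytosines with at least 10 reads in all libraries, the largest fall in the wild type pair was at base 36156961, with 1 of 14 reads methylated in WT naive and 28 of 31 in WT primed (adjusted p = 9.93e-06, Fisher's exact test). By the same limit it was at base 36148929 in the knockout pair, with 14 of 49 reads methylated in KO naive and 12 of 12 in KO primed (adjusted p = 0.000201, Fisher's exact test). The rule of size for tiles, a mean difference of 25 points or more that 80% or more of its cytosines share in sign, was passed downward by the 3 block tiles in each pair. Over all tiles it was passed downward by 36.8% in the wild type pair and 36.2% in the knockout pair, and upward by 0.536% and 0.162%.

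The genotypes differed less at NNAT than the states did. KO primed minus WT primed was −1.76 points, with 23 cytosines lower, 15 higher and 28 equal. No cytosine was called, against 0.103% called lower and 0.216% called higher over the whole table, so nothing is read from this. In the naive pair KO naive was 4.16 points above WT naive as a mean, but the sign changed along the interval. KO naive was higher by 10.6 and 8.34 points in the first tiles of the block and the difference was −17 points at 36150001 to 36151000 and −16 points at 36154001 to 36155000. No cytosine passed the test in the naive pair, where 0.218% were called lower and 0.391% higher over the whole table. The largest difference at 10 or more reads in all libraries was 77.3% of 22 reads against 29.6% of 27 reads at base 36148671 (adjusted p = 0.0993, Fisher's exact test). None of the NNAT tiles passed the rule of size in this pair, against 2.21% of all tiles passing downward and 3.33% upward.

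**Figure D3:**
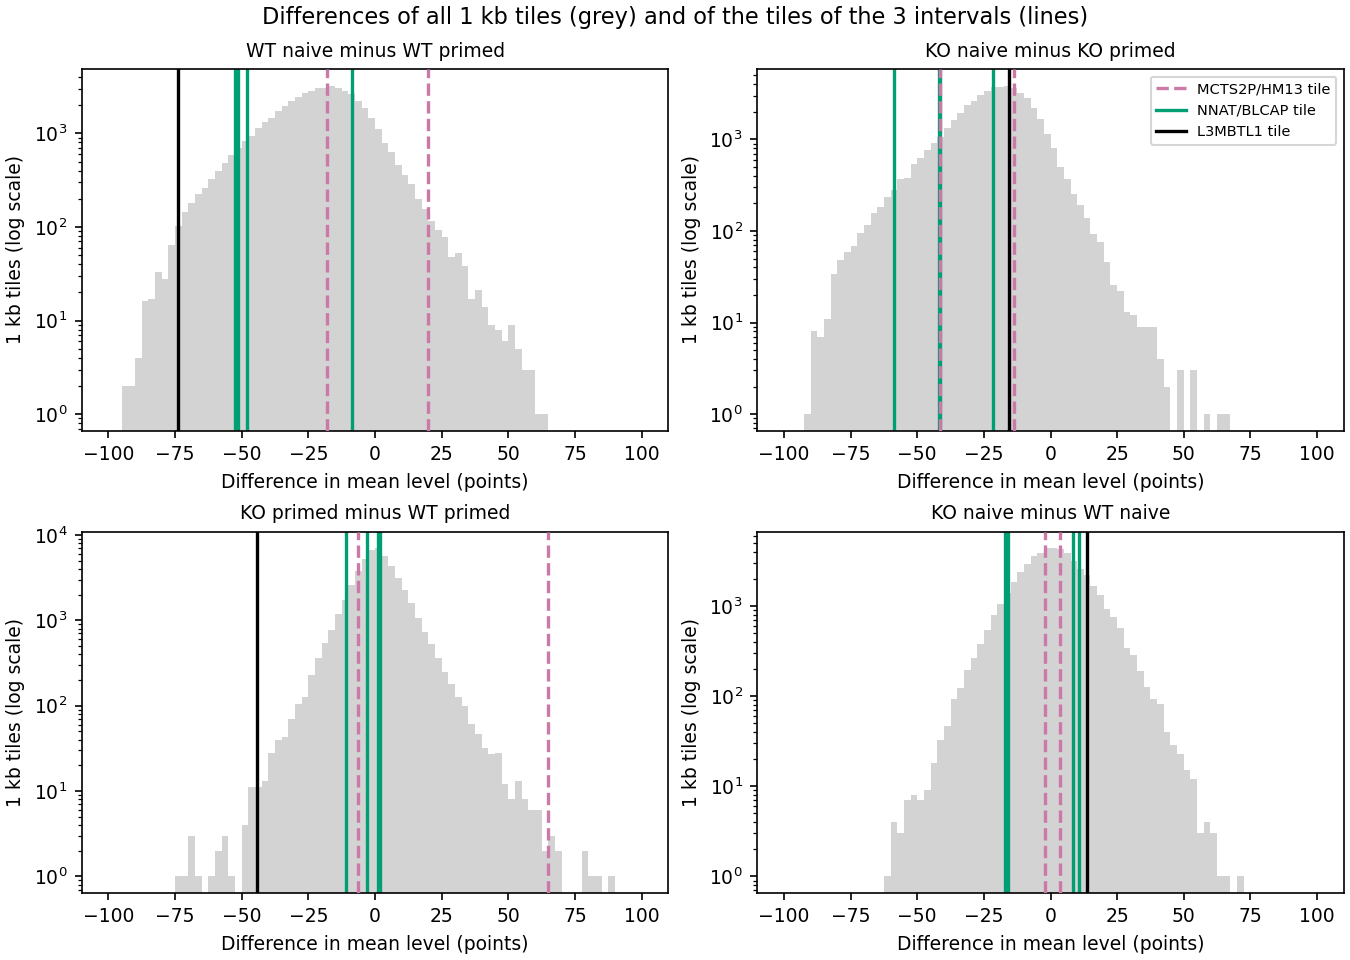
Histograms of the difference in mean level (percentage points) of all 51144 tiles of 1 kb in each of the 4 comparisons, with the count of tiles on a log axis and the 7 tiles of the intervals as vertical lines. The MCTS2P promoter tile lies at 19.7 points in the wild type pair, at −41.3 points in the knockout pair beside an NNAT tile at −41.3, and at 64.7 points between the primed libraries, while the L3MBTL1 tile lies at −73.9 points in the wild type pair.

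At L3MBTL1 the libraries ranked from high to low in the order WT primed, KO primed, KO naive, WT naive. Over the 5 cytosines between 42142001 and 42143000 the mean level was 82.2% ± 29.0 (SD over cytosines) in WT primed, 37.8% ± 23.6 in KO primed, 22.1% ± 12.3 in KO naive and 8.31% ± 5.47 in WT naive. The neighbours KO primed and KO naive in that order did not differ beyond their spread. The only member outside this tile, at base 42144162, was high in all libraries, at 93.3% in WT primed, 85.7% in KO primed, 90.0% in WT naive and 75.0% in KO naive.

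The single cytosines of the tile differed in how they were ordered. At base 42142573 the level was 100% of 8 reads in WT primed, 28.6% of 14 reads in KO primed, 4.55% of 22 reads in WT naive and 31.3% of 16 reads in KO naive. At base 42142618 it was 100% of 5 reads, 22.2% of 9 reads, 7.69% of 13 reads and 38.5% of 13 reads in the same order. Upstream, at base 42142452, KO primed was the highest with 62.9% of 35 reads, over 33.3% of 12 reads in WT primed, 15.0% of 20 reads in KO naive and 3.57% of 28 reads in WT naive. KO primed was thus above KO naive at the upstream cytosines and below it at the 3 downstream ones.

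From WT primed to WT naive the level fell by 73.9 points over this tile, and 0.401% of all tiles fell further. All 5 cytosines were lower and 4 were called by Fisher's exact test, with adjusted p between 8.90e-05 and 0.0218, against the 16.2% called lower over the whole table. The tile passed the rule of size. From KO primed to KO naive it fell by 15.7 points, close to the median tile, with 40% of cytosines lower. At bases 42142418 and 42142452 the 2 cytosines were called lower, against 18.2% called lower over the whole table. The tile did not pass the rule in the knockout pair.

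KO primed minus WT primed was −44.4 points over the tile, with 4 of 5 cytosines lower, and 0.0567% of all tiles fell further. That rank is a description, as the L3MBTL1 interval too was picked with earlier results of these libraries known. Between the primed libraries this tile passed the rule of size downward, against 0.800% of all tiles. The MCTS2P promoter tile passed it upward, against 1.54% of all tiles, and no other tile of the intervals passed. Nothing is read from the MCTS2P tile passing, since its difference was known when the intervals were picked. No L3MBTL1 cytosine passed Fisher's exact test in this pair, where WT primed had 5 to 12 reads per cytosine. With all 14 cytosines that had at least 5 reads in both primed libraries, the difference was −50.9 points, at 36.0% ± 17.6 against 86.9% ± 18.5, with 13 of 14 lower. KO naive was 13.8 points above WT naive, with 80% of cytosines higher and none called, against 0.218% called lower and 0.391% higher over the whole table.

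The number of cytosines listed at L3MBTL1 was itself uneven. Of the 50 cytosines that any library listed in the interval, WT primed listed 41, KO primed 49, KO naive 44 and WT naive 14, and 27 were missing from WT naive alone. In the tile 42143001 to 42144000 WT naive listed 0 of 21 cytosines, where KO naive listed 19, KO primed 20 and WT primed 16. With at least 5 reads the level there was 25.2% ± 8.72 over 19 cytosines in KO naive, 17.9% ± 8.96 over 18 in KO primed and 26.7% ± 7.70 over 4 in WT primed. At 4 of the 5 members of the neighbouring tile WT naive had exactly 1 methylated read, so its listed level is close to the lowest the tables can show. Whether the missing cytosines lacked coverage or lacked methylated reads cannot be told apart.

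Setting the unlisted cytosines of a library to 0 methylated reads at the coverage of the nearest listed neighbour within 25 bases gave 11 cytosines in the tile 42142001 to 42143000. Their means were 89.3% in WT primed, 32.1% in KO primed, 3.78% in WT naive and 32.4% in KO naive. KO primed and KO naive came to about the same level. Over the whole tile 9 unlisted cytosines were filled in WT naive, not all of which entered the 11. WT naive was already the lowest, so its place could not change.

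The second RefSeq promoter of L3MBTL1 was placed at chr20:42142831-42143130 by 5 of 5 listed cytosines, against 3 of 3 for the next placement, a weaker match than at MCTS2. These 5 were listed in KO primed alone, with 3 at 40.0% on 5 reads and 2 at 100% on 2 reads. The 3 other libraries listed 0 there.

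**Figure D4:**
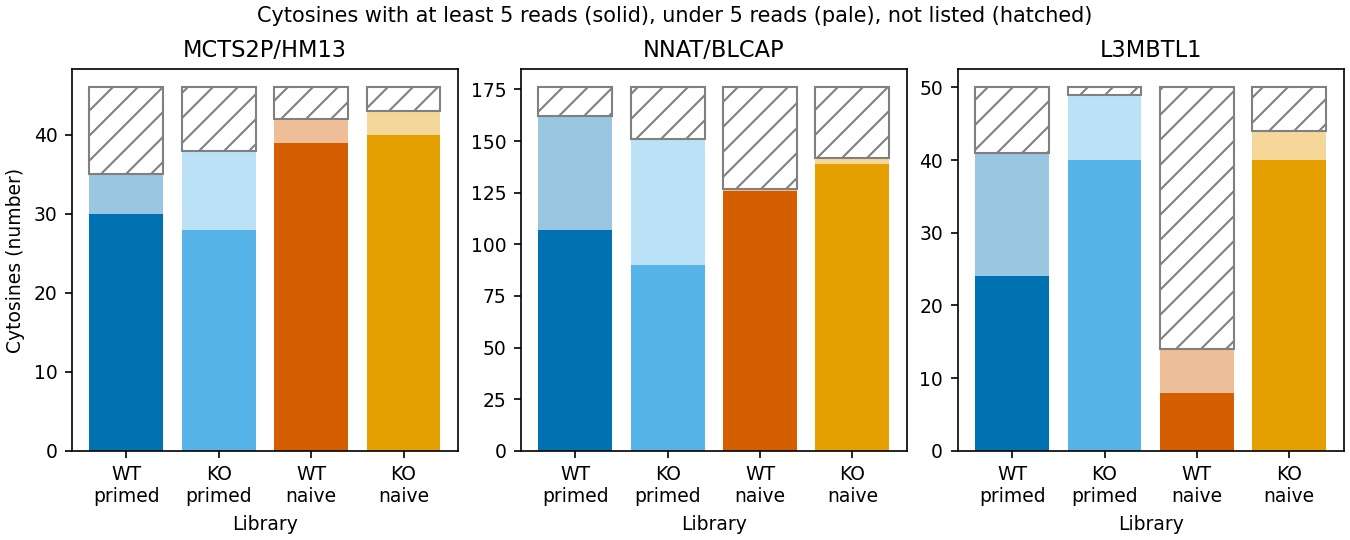
Number of cytosines in each interval by library, out of all that any library listed: with at least 5 reads (solid), with fewer (pale) and not listed (hatched). WT naive lists 14 of 50 at L3MBTL1, 127 of 176 at NNAT/BLCAP and 42 of 46 at MCTS2P/HM13.

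Listing was less uneven in the other intervals. At MCTS2P/HM13 the libraries listed 35, 38, 42 and 43 of 46 cytosines in the order WT primed, KO primed, WT naive, KO naive, and at NNAT/BLCAP 162, 151, 127 and 142 of 176. WT primed was the library with the fewest at MCTS2P/HM13, where its level was lowest, and the naive libraries had the fewest at NNAT/BLCAP, where theirs were. Filling unlisted cytosines in at 0 in the same way gave 10.5, −34.9, 47.7 and 2.25 points at MCTS2P/HM13 in the wild type, knockout, primed and naive pairs, against 9.51, −34.6, 46.5 and 2.40 without it. At NNAT/BLCAP it gave −48.9, −42.3, −2.27 and 4.34 points, against −47.9, −41.9, −1.76 and 4.16. It changed these means little, with 1 cytosine added at MCTS2P/HM13 and 3 at NNAT/BLCAP.

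The band from 35 to 65% was taken as the middle of the scale. Of the 7 tiles with at least 5 cytosines, 1 lay there in WT primed, 2 in KO primed, 4 in WT naive and 3 in KO naive. Over all tiles of the series the share in that band was 13.6% in WT primed, 12.5% in KO primed, 44.0% in WT naive and 41.3% in KO naive. A middle level was thus common in the naive libraries at any place and uncommon in the primed ones. With 7 tiles, neither a scarcity nor an excess is read from these counts. In WT primed the mean stood at 10.7% in the MCTS2P promoter tile, 94.8 to 97.1% in the NNAT block and 82.2% ± 29.0 in the L3MBTL1 tile. None of these means is the middle level that a mark on 1 parental copy gives. At L3MBTL1 the single cytosines of WT primed ran from 33.3% to 100%. The next tile, 42143001 to 42144000, held no member and stood at 26.7% over 4 cytosines in WT primed.

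At the edge of the coverage rule the values were as follows. In the MCTS2P/HM13 interval the 2 cytosines whose lowest coverage was 4 reads averaged 42.5%, 35%, 28.3% and 31.2% in the order WT primed, KO primed, WT naive, KO naive, and the 1 at 5 reads stood at 81.8%, 100%, 62.5% and 66.7%. In the NNAT/BLCAP interval the 18 cytosines at 4 reads averaged 94.0%, 92.4%, 42.3% and 41.7%, and the 16 at 5 reads 89.3%, 89.5%, 50.6% and 48.7%. In the L3MBTL1 interval the 3 at 4 reads averaged 63.9%, 70.6%, 60.4% and 59.7%, and the 2 at 5 reads 100%, 17.4%, 8.01% and 27.6%. At NNAT the naive libraries were higher and the primed ones lower at 5 reads than at 4.

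The calls by Fisher's exact test treat reads as independent. The strands of the same CpG varied 2.61 to 4.02 times more between them than independent reads would, over CpGs with both strands in the table and a level of 20 to 80%, which numbered 33500 to 65331 of 84471 by library. With the reads divided by this ratio, 0 of the 98 cytosines were called in any of the 4 comparisons. Before the division 31, 49, 11 and 0 were called, in the order wild type pair, knockout pair, primed pair, naive pair. Over the whole table the calls fell in the same order to 1219, 1527, 24 and 30, from 151029, 167195, 2894 and 5520. The division leaves few reads per cytosine. The ratio comes from CpGs listed on both strands, while all 98 members lie on the minus strand. The 0 therefore cannot tell a lack of difference from a lack of reads. At an unadjusted p under 0.05 and 25 points, 2, 8, 10 and 1 of the 98 passed with the division, and 47, 64, 24 and 8 without it. The shares over all cytosines by this looser rule were not computed, so nothing is read from these counts.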

How the data were processed

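Bisulfite libraries of H9 DNA were captured with a targeted methylation kit, with a conversion of 99% per the labels' protocols. Per the submitters' processing notes, positions are on hg19 (GRCh37). How reads were aligned, called and deduplicated is not given in the sources used here. Per the file headers, the authors deposited raw read counts (context and methylated coverage) and the methylation level as a fraction, 1 row per cytosine and strand. Levels here are methylated over context reads, in percent, with each cytosine weighted equally.

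Cytosines of chromosomes 1 to 22 and X with at least 5 reads in all 4 libraries were kept, of which 85.0% lay on the minus strand. Each was tested with a two-sided Fisher's exact test, Benjamini-Hochberg adjusted over all 907719, which compares the reads of 2 libraries and not conditions. A call needed an adjusted p under 0.05 and 25 points. Tiles of 1 kb needed 5 cytosines. Comparisons of a library with 2 others share its reads. The intervals, genes and tests were chosen with earlier results of these data known. All tiles with at least 5 cytosines are given, and for each interval and comparison the cytosine with the largest difference at 10 or more reads in all libraries could be named; other single cytosines were chosen after their values were seen. On simulated counts of the same depths, 20000 of the 907719 cytosines were lowered by 50 points. Of these 12.5 to 26.8% were called, and 87.1 to 91.6% of those with at least 30 reads in both libraries. The simulated reads were independent and few cytosines changed, unlike in the data between primed and naive cells. These shares are therefore not the sensitivity of the comparisons above. Python 3.11.15, SciPy 1.17.1, pandas 2.3.3, NumPy 2.4.6 and numba 0.67.0 were used.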

Additional observations from a re-analysis of the deposited data

Results flagged for a closer look

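In each interval 1 contrast pointed in opposite directions in the pairs compared, over the means of 1 library each, and the difference between the pairs was not tested. At MCTS2P/HM13, naive minus primed was 9.51 points in the wild type pair and −34.6 points in the knockout pair. At NNAT/BLCAP, knockout minus wild type was −1.76 points in primed cells, with a counting half-width of 3.01 points (95%), and 4.16 points in naive cells, with one of 3.30. The first includes 0 within its counting error, and its median over cytosines was 0. At L3MBTL1, knockout minus wild type was −38.3 points in primed cells and 8.99 points in naive cells. The half-widths come from pooled reads, while these means weight each cytosine equally. Weighted by reads, the naive difference at L3MBTL1 was 19.5 points, beyond its half-width of 11.3 points. Its size thus depends on how the 6 cytosines are weighted, and the half-width is too narrow where reads are shared. Each pair of contrasts holds all 4 libraries, and the naive libraries differ in medium as well as genotype.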

How the results depend on the processing

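Of 100 recomputed interval differences, 35 equalled the main value and say nothing of stability, mostly because all 98 members lie on the minus strand and none has over 53 reads, so that the limits on strand and on high coverage removed nothing. Of the other 65, 47 stayed within the 95% counting interval of the main difference, 15 moved further with their sign kept and 3 changed sign, all 3 at L3MBTL1. There KO naive minus KO primed (−14.9) became 0.897 with each library's own cytosines and 0.536 with the cytosines of the 2 libraries compared, an alternative chosen after seeing the data, and KO primed minus WT primed (−38.3) became 29.5 with a minimum of 10 reads, which left 1 cytosine. That minimum also gave −29.8 for WT naive minus WT primed and −47.9 for KO naive minus KO primed. Filling unlisted cytosines in at 0 gave −78.6, −0.667, −53.0 and 24.98 for the wild type, knockout, primed and naive pairs.

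At MCTS2P/HM13 the minimum of 10 reads gave 15.9 in the wild type pair and 53.4 in the primed pair, and that of 20 reads, with 3 cytosines, 56.8 in the primed and 19.6 in the naive pair. At NNAT/BLCAP the minimum of 10 reads gave −52.7, −36.8 and 12.2 in the wild type, knockout and naive pairs, own cytosines 0.845 in the naive pair, and the cytosines of the 2 libraries −51.6 in the wild type pair. The minimum of 20 reads left no cytosine at NNAT/BLCAP and L3MBTL1.

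With reads divided by the strand ratio, calls in the intervals fell to 0 in the wild type, knockout and primed pairs, and in the whole table to 1219, 1527, 24 and 30, from 151029, 167195, 2894 and 5520. At 50 points the knockout pair kept 22 calls in the intervals and 88532 in all. Of the interval tiles past the rule of size (4, 4, 2 and 0), the minimum of 10 reads gave 1, 2 and 1 in the first 3 pairs, 10 cytosines per tile gave 1 in the primed pair, and 50 points gave 1 in the knockout and 1 in the primed pair. Over all tiles (19112, 18593, 1199 and 2833) the counts were 7809, 7075, 411 and 792 with 10 reads, 5757, 5481, 248 and 452 with 10 cytosines, and 3578, 2592, 66 and 63 at 50 points. Fewer cytosines or tiles are tested under the stricter minimums; the cause of the other changes was not tested.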
